A study of Drosophila melanogaster with 10 samples.

Results

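The Imd pathway is a fly innate immune cascade that ends in the NF-kappaB factor Relish (the gene Rel) and is best known for switching on antimicrobial peptide genes in the fat body and gut when receptors bind bacterial peptidoglycan. Inside the cell the adaptor Imd recruits Fadd and the caspase Dredd, the ubiquitin ligase Diap2 modifies the complex, the kinase Tak1 carries the signal to the IKK complex (key and ird5), and Relish is phosphorylated and cleaved. Several proteins hold the cascade back, among them Pirk, which separates Imd from its receptors, Dnr1, which restrains Dredd, and Caspar (the gene casp), which hinders the cleavage of Relish. The transcripts described here are those of the 7 activating steps (imd, Fadd, Dredd, Diap2, Tak1, key and ird5) and of these 3 brakes. The rule that chose the 10 genes names them and uses no measured value, although earlier results of these data were known when it was set. All 10 were found, by FlyBase gene ID or an older name, among the 14351 genes of the count table. All 10 also passed the filter on low values, which left 9365 genes. It asked for a mean TPM, a level per transcript length, above 2 in either group. pirk passed it only through the libraries of injured flies, at 10.8 TPM, against 0.979 TPM in those of uninjured flies.

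The libraries hold RNA of ventral nerve cords (VNCs, which in flies correspond to the spinal cord) from adult flies of w1118, a laboratory strain with white eyes, at 3 to 10 days of age by the labels, with a narrower range in the study's methods and an older one in its RNA quality sheet. Flies in the 5 injured libraries had lost the head, all 6 legs and both wings and were dissected 5 hr later after lying on humid agar, whereas flies in the 5 uninjured libraries were intact and starved for 5 hr on agar, so any effect of housing cannot be told apart from that of injury. Each library was a pool of males and females, made from 60 to 80 collected VNCs by the labels. The study's methods give that range for the flies injured and fewer VNCs for each RNA extraction. Count totals ran from 5146470 to 6625705 in injured libraries and from 5763891 to 6640492 in uninjured libraries, and all libraries shared a sequencing lane. Libraries are numbered here by the columns of the count table.

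The question was which parts of the intracellular cascade changed at the transcript level 5 hr after injury. The brakes pirk and dnr1 and the caspase Dredd rose, and the other 7 members did not pass the test. pirk rose 11.4-fold, whereas Dredd and dnr1 rose 1.57-fold each. These 3 of 10 members stand beside 7.55% of all genes tested that rose at an adjusted p under 0.01 (edgeR's quasi-likelihood test, Benjamini-Hochberg adjustment over all genes tested). No member fell, at this threshold or at an unadjusted p under 0.05, and none fell with DESeq2 or limma-voom, beside 6.13% of all genes that fell. The median log2 fold change was 0.26 over the members and 0.00 over all genes tested. Levels are CPM, a gene's counts for each 1000000 counts of its library after TMM scaling, and errors are the SD over the 5 libraries of a group. In these bulk libraries more cells of a type and more RNA per cell cannot be told apart.

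**Figure D1:**
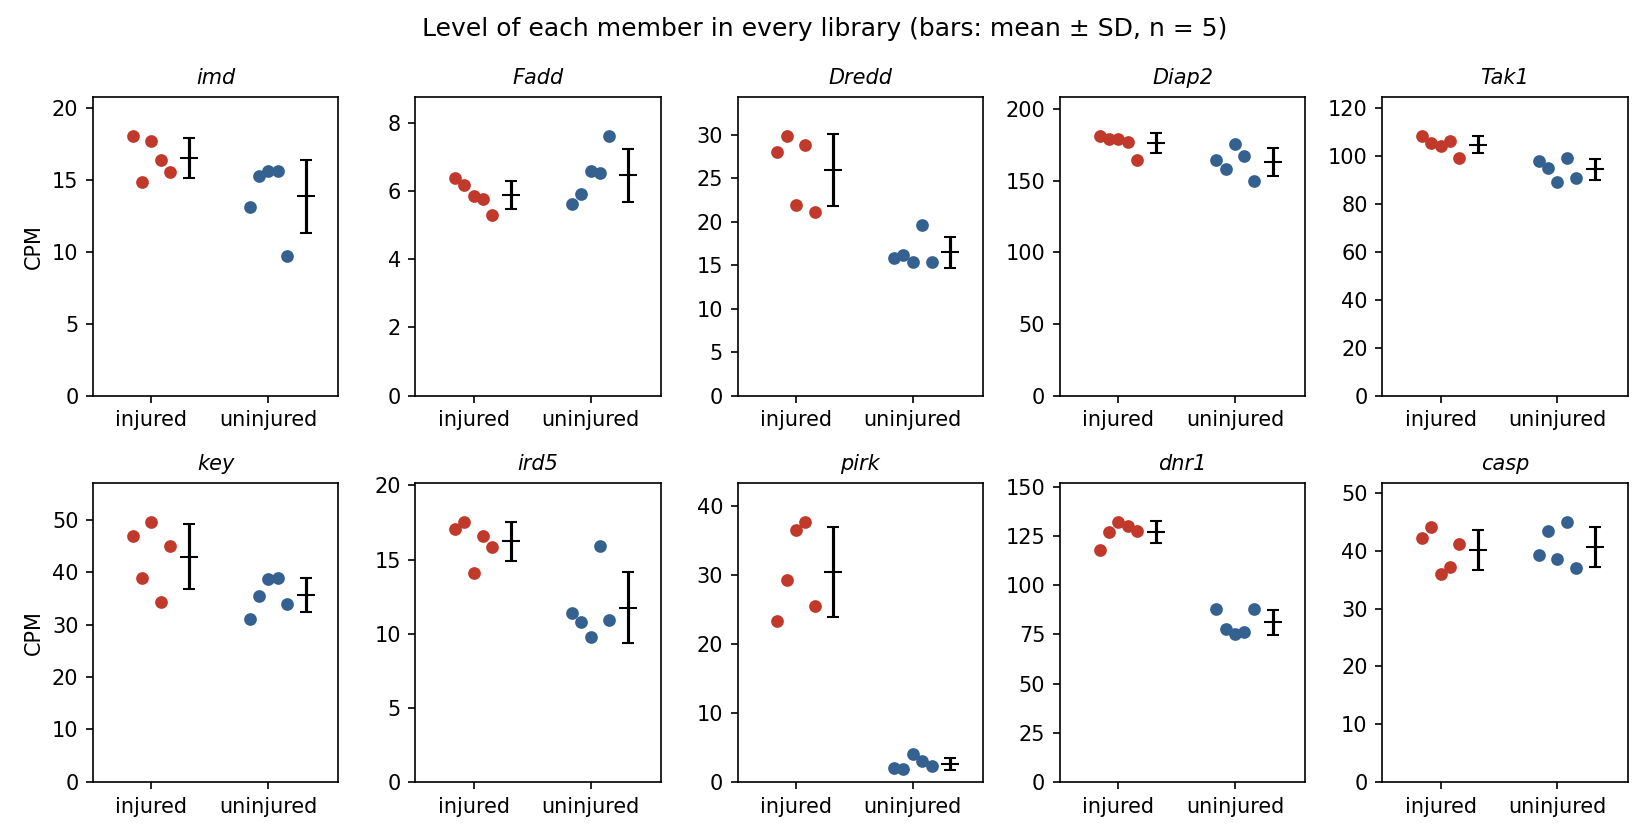
CPM of each member (vertical axes, each from 0) in the 5 injured libraries (red, left) and the 5 uninjured libraries (blue, right), with the mean and SD in black. For pirk, dnr1 and Dredd every injured point lies above every uninjured point, while the points of the other 7 members overlap.

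Pirk binds Imd and the cytoplasmic part of the peptidoglycan receptors and is itself a known target of the pathway. Its gene (FBgn0034647, listed in the count table as CG15678) had 157, 152, 225, 216 and 154 counts in injured libraries 1 to 5, against 12, 13, 25, 18 and 13 counts in uninjured libraries 1 to 5. After scaling, pirk stood at 30.4 ± 6.47 CPM in injured and 2.65 ± 0.874 CPM in uninjured libraries (SD, n = 5 each). The lowest injured library, at 23.3 CPM, was well above the highest uninjured library, at 4.02 CPM. On the log2 scale pirk rose by 3.51 (SE 0.21, 95% interval 3.06 to 3.97, edgeR adjusted p = 9.75e-08), the place 29 of 9365 when genes are ordered by fold change. Because pirk passed the filter only through its injured libraries, the fit without a filter also matters, and it gave 3.53 (edgeR adjusted p = 8.56e-07). The groups of pirk did not overlap, as held for 3 members in all with the injured libraries above, beside 8.8% of all genes tested. No member had all injured libraries below all uninjured ones, beside 7.73% of all genes tested. The spread among injured libraries (21.2% of the mean) was larger than the 7.44% that counting alone would give, while the spread among uninjured libraries (33.0%) lay closer to the 24.8% expected from so few counts.

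Dnr1, a RING-domain protein that lowers Dredd activity, was already well expressed without injury. The gene (FBgn0260866) had 118, 127, 132, 130 and 128 CPM in injured libraries 1 to 5, against 87.8, 78.0, 75.3, 76.2 and 88.0 CPM in uninjured libraries 1 to 5. The groups were separate, and the gap between the lowest injured and the highest uninjured library was wider than the range of either group. dnr1 rose by 0.65 on the log2 scale (SE 0.06, 95% interval 0.52 to 0.78, edgeR adjusted p = 4.41e-06).

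Caspar, the third brake, carries a ubiquitin-associated domain and is related to mammalian Fas-associated factor 1. casp (FBgn0034068) was at 40.2 ± 3.46 CPM in injured and 40.7 ± 3.41 CPM in uninjured libraries (SD, n = 5 each), with the groups intermixed. The log2 fold change was -0.02 (SE 0.08, edgeR adjusted p = 0.883), and its 95% interval corresponds to a fold between 0.873 and 1.12. A change as large as that of dnr1 lay outside this interval. The 3 brakes therefore spanned a wide range, from 0.987-fold for casp to 11.4-fold for pirk.

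At the head of the cascade, Dredd was the 1 component of the Imd, Fadd and Dredd complex that passed the test. Dredd, the caspase-8-type protease that cleaves both Imd and Relish (FBgn0020381), had 28.0, 29.9, 21.9, 28.8 and 21.1 CPM in injured libraries 1 to 5, against 15.8, 16.1, 15.4, 19.6 and 15.4 CPM in uninjured libraries 1 to 5. All injured libraries were above all uninjured ones, but the injured libraries fell into a higher trio (1, 2 and 4) and a lower pair (3 and 5) near the highest uninjured library. Dredd rose by 0.65 on the log2 scale (SE 0.12, 95% interval 0.40 to 0.91, edgeR adjusted p = 0.00139).

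The adaptor imd (FBgn0013983) had 18.1, 14.9, 17.7, 16.4 and 15.5 CPM in injured libraries 1 to 5, against 13.1, 15.2, 15.6, 15.6 and 9.71 CPM in uninjured libraries 1 to 5. Uninjured library 5 was the lowest, and 3 of 5 injured libraries exceeded every uninjured library. The log2 fold change of 0.25 (SE 0.13, edgeR adjusted p = 0.181) did not pass the test, with a 95% interval from -0.03 to 0.54 that included 0.

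Fadd (FBgn0038928), the death-domain adaptor that joins Imd to Dredd, was counted 32 to 43 times in injured and 33 to 44 times in uninjured libraries. At 5.89 ± 0.418 CPM in injured and 6.46 ± 0.772 CPM in uninjured libraries (SD, n = 5 each), it showed overlapping groups, with injured library 5 below all uninjured libraries. Its log2 fold change was -0.13 (SE 0.13, edgeR adjusted p = 0.561), with a 95% interval from 0.746-fold to 1.12-fold, and no difference was detectable at this depth. Fadd and casp were the 2 members with a negative estimate.

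Diap2, an inhibitor-of-apoptosis protein whose RING domain ubiquitinates Imd and Dredd, had the highest level of the members per transcript length. The gene (FBgn0015247) was at 176 ± 6.84 CPM in injured and 163 ± 9.56 CPM in uninjured libraries (SD, n = 5 each). In 4 of 5 injured libraries it was above every uninjured library, but injured library 5 lay among the uninjured ones. The log2 fold change was 0.11 (SE 0.05, edgeR adjusted p = 0.142), with a 95% interval from 0.999-fold to 1.17-fold.

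Tak1, the kinase that activates both IKK and the JNK branch, was measured with similar precision. The gene (FBgn0026323) was at 105 ± 3.50 CPM in injured and 94.4 ± 4.34 CPM in uninjured libraries (SD, n = 5 each), and 1 injured library fell within the uninjured range. Its log2 fold change was 0.15 (SE 0.05, edgeR adjusted p = 0.0400), past a threshold of 0.05 but not the one of 0.01 used here, and its 95% interval ran from 1.03-fold to 1.19-fold.

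The 2 subunits of the IKK complex were both higher on average in injured libraries without passing the test. key (Kenny, the regulatory subunit, FBgn0041205) had 47.0, 39.0, 49.6, 34.4 and 44.9 CPM in injured libraries 1 to 5, against 31.2, 35.5, 38.7, 38.9 and 34.0 CPM in uninjured libraries 1 to 5. Injured library 4 lay inside the uninjured range, and the log2 fold change of 0.27 (SE 0.10) had an edgeR adjusted p of 0.0794. ird5 (the kinase subunit IKKbeta, FBgn0024222) had 17.0, 17.6, 14.1, 16.6 and 15.9 CPM in injured libraries 1 to 5, against 11.4, 10.8, 9.80, 15.9 and 10.9 CPM in uninjured libraries 1 to 5. Here a single library, uninjured library 4, stood among the injured ones, and the other 4 uninjured libraries lay below all injured libraries. The log2 fold change of ird5 was 0.46 (SE 0.13, edgeR adjusted p = 0.0223), and without uninjured library 4 it was 0.58 with an adjusted p of 0.00154. That library decides whether ird5 passes, so the count of members that rose was 4 without it and 3 when any other library was left out.

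**Figure D2:**
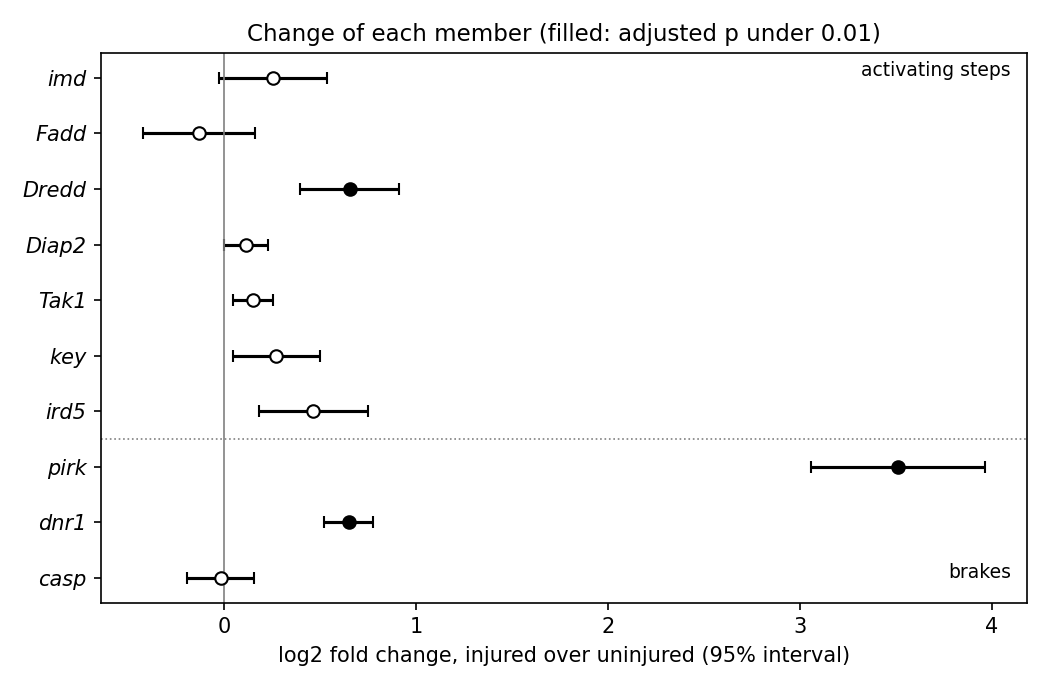
Log2 fold change of each member, injured over uninjured (horizontal axis), with its 95% interval from edgeR, activating steps above the dotted line and brakes below. Filled circles mark an adjusted p under 0.01, and pirk at 3.51 stands apart from the other 9 members, which lie between -0.13 and 0.65.

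Among the activating steps, 1 of 7 rose and none fell, with a median log2 fold change of 0.25. Among the brakes, 2 of 3 rose. Both counts stand beside the 7.55% of all genes tested that rose. The difference between the roles was not tested. 6 of the 10 members had a 95% interval above 0 and 8 had a positive estimate. The shares of all genes tested that did so were not computed, so these counts have no baseline. The genes of imd, Dredd, Diap2 and key share between 1 and 40 exon bases with a counted gene on the opposite strand in a later annotation. Whether strand was used in counting is not stated, and reads in those bases cannot be assigned to either gene. On the same strand, ird5 shares 201 exon bases with a noncoding gene, and Dredd shares 61 with a microRNA gene and 23 and 24 with other small entries, none of which has counts of its own here. pirk, dnr1, casp, Tak1 and Fadd share no exon bases with another gene there.

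Levels between genes are compared by the deposited TPM, which divides by the length of the longest transcript. In injured libraries the order was Diap2, dnr1, Tak1, key, pirk, casp, Dredd, imd, ird5 and Fadd. Diap2 was apart from the rest in every library, at 54.9 ± 4.45 TPM, and pirk, at 10.8 ± 2.13 TPM (SD, n = 5 each), lay below the range of key and within reach of casp and Dredd. The ranges of dnr1, Tak1 and key also ran into each other, as did those of ird5 and Fadd at the bottom. In uninjured libraries the order was Diap2, Tak1, key, dnr1, casp, Dredd, imd, Fadd, ird5 and pirk. Diap2, at 52.8 ± 3.79 TPM, and pirk, at 0.979 ± 0.323 TPM (SD, n = 5 each), were apart from their neighbours there, whereas the ranges of Tak1, key and dnr1 met, as did those of Dredd, imd, Fadd and ird5 from one to the next. By these means pirk stood in place 5 in injured libraries, against place 10 in uninjured libraries. dnr1 stood in place 2 in injured libraries, against place 4 in uninjured libraries.

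**Figure D3:**
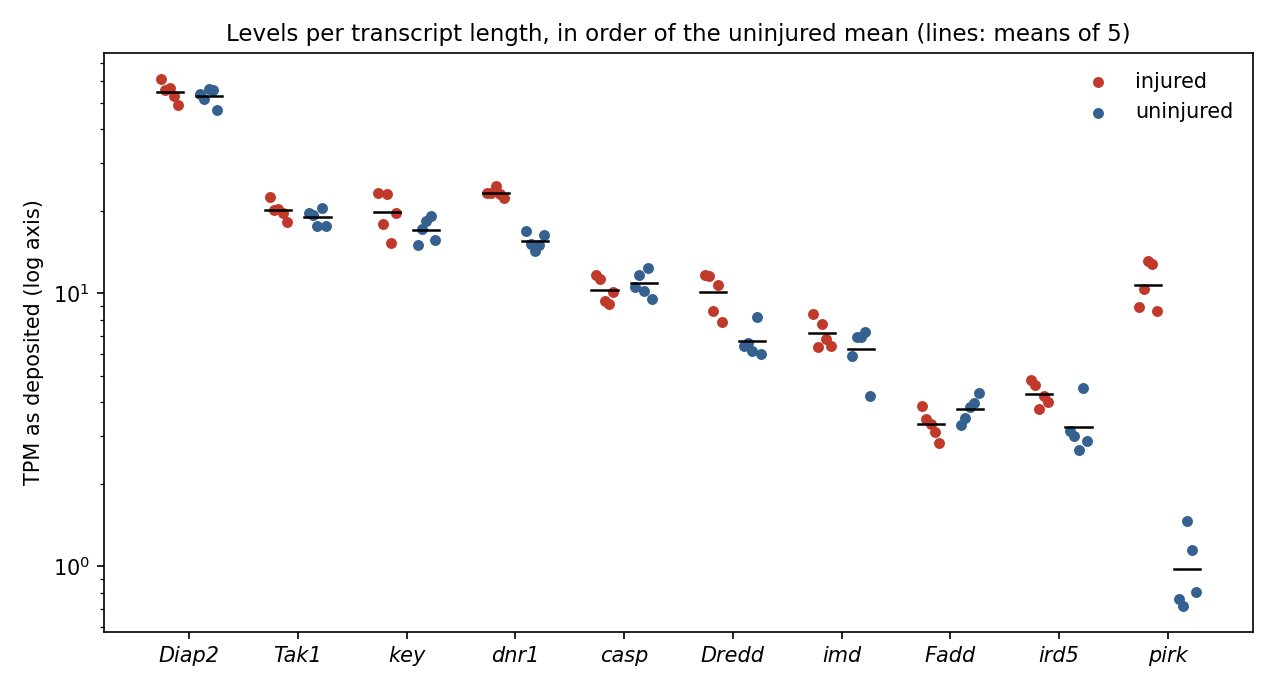
Deposited TPM (log axis) of each member in the 5 injured (red, left) and 5 uninjured (blue, right) libraries, with members in the order of their uninjured means and black lines at group means. pirk lies at the level of casp and Dredd in injured libraries, at 10.8 TPM, and below all other members in uninjured libraries, at 0.979 TPM.

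The ratio of each brake to imd within a library describes this shift without library scaling. The TPM of pirk was 1.06, 1.62, 1.70, 1.89 and 1.35 times that of imd in injured libraries 1 to 5, against 0.128, 0.104, 0.212, 0.159 and 0.191 times in uninjured libraries 1 to 5. There was thus more pirk than imd transcript per length in every injured library and less in every uninjured library. The ratio of dnr1 to imd was 2.78 to 3.66 in injured and 2.07 to 3.88 in uninjured libraries, and that of casp to imd 1.21 to 1.77 in injured and 1.47 to 2.27 in uninjured libraries, both overlapping. Further pairs that act on each other were chosen after their values were seen. dnr1 and its target Dredd rose by a similar factor, and their ratio overlapped, at 2.00 to 2.87 in injured and 1.85 to 2.71 in uninjured libraries. The ratio of Dredd to its partner Fadd was 2.58 to 3.44 in injured and 1.39 to 2.07 in uninjured libraries, with no overlap. The ratio of ird5 to key was 0.162 to 0.275 in injured and 0.145 to 0.234 in uninjured libraries, which overlapped.

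Of the other genes of the pathway, 39 in 5 lists were tested. Counts here and in the lists below stand beside the 7.55% of all genes tested that rose and the 6.13% that fell. 19 rose, 0 fell and 20 did not pass with edgeR, 3 (PGRP-SC1a, Uev1A and CYLD, named after their values were seen) had a negative change at an unadjusted p under 0.05, and none fell with DESeq2 or limma-voom. The lists differed in where the called genes lay. Rel and all 13 antimicrobial peptide genes rose. Of these, AttA, AttB, AttD, CecA1, CecA2, CecB, CecC and Dro passed the filter only through their injured libraries. They would not have been tested without high injured levels, so the filter itself favoured a count of all 13. Rel was at 706 ± 62.2 CPM in injured and 82.1 ± 11.7 CPM in uninjured libraries (SD, n = 5 each), a log2 fold change of 3.10 (SE 0.10, edgeR adjusted p = 9.02e-10). The attacin gene AttA had 452 to 759 counts in injured and 2 to 7 in uninjured libraries, and the cecropin gene CecA1 had 220 to 407 in injured and 1 to 5 in uninjured libraries. CecC, another cecropin gene, had 123 to 207 counts in injured and 1 to 2 in uninjured libraries. The lowest value anywhere in the count table was 1, which could also mean that no read was seen. AttA and AttB, and CecA1 and CecA2, are near copies, so the split of reads within each pair is uncertain.

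Around the receptors, 3 of 9 genes tested rose. Of 4 receptor genes, the secreted co-receptor PGRP-SD rose by 1.94 on the log2 scale (SE 0.14, edgeR adjusted p = 7.02e-07), to 30.4 ± 4.70 CPM in injured libraries, against 7.91 ± 1.56 CPM in uninjured libraries (SD, n = 5 each). The main membrane receptor PGRP-LC was at 20.4 ± 5.14 CPM in injured and 16.0 ± 2.37 CPM in uninjured libraries, and PGRP-LA at 12.8 ± 1.62 CPM in injured and 13.0 ± 2.32 CPM in uninjured libraries (SD, n = 5 each). Neither passed the test. Among the amidases and receptor brakes, PGRP-SB1 rose by 4.27 (SE 0.25) and PGRP-SC2 by 1.29 (SE 0.18) on the log2 scale. Those 2 encode enzymes that cut peptidoglycan. The estimates of PGRP-LB, an amidase, and PGRP-LF, a decoy receptor, were 0.84 (SE 0.25, edgeR adjusted p = 0.0280) and 0.76 (SE 0.21, edgeR adjusted p = 0.0181), and these missed the threshold. Both passed with DESeq2 (adjusted p = 0.00895 for PGRP-LB and 0.00635 for PGRP-LF), and PGRP-LF also passed without uninjured library 2 (edgeR adjusted p = 0.00494). PGRP-SC1b and PGRP-SB2 were below the filter, and PGRP-SC1b is a near copy of PGRP-SC1a, which did not pass.

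None of the 6 ubiquitin enzymes and cofactors tested passed the edgeR test, with 1 lower and 0 higher at an unadjusted p under 0.05. Their median log2 fold change was -0.08. The ubiquitin-conjugating enzyme gene eff was at 210.0 ± 14.8 CPM in injured and 226 ± 14.4 CPM in uninjured libraries, and ben, which encodes another, at 149 ± 14.4 CPM in injured and 155 ± 6.00 CPM in uninjured libraries (SD, n = 5 each). Of 10 other brakes inside the cell, 2 rose, which are zfh1 by 0.98 (SE 0.10) and scny by 0.33 (SE 0.05) on the log2 scale. By limma on log2(TPM + 1) scny did not pass (adjusted p = 0.0159). zfh1 encodes a zinc finger repressor and scny a deubiquitinase. The deubiquitinase genes faf and Usp2 had log2 fold changes of -0.02 and 0.09 and did not pass.

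**Figure D4:**
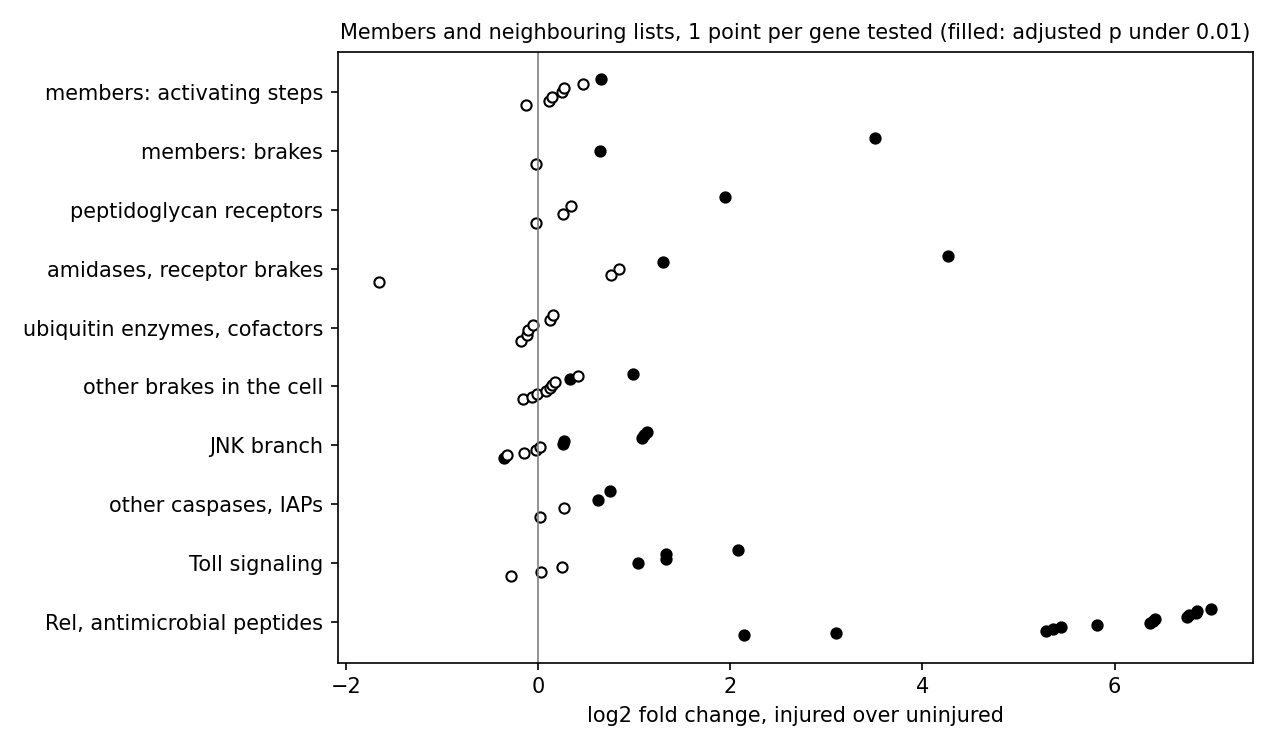
Log2 fold change, injured over uninjured (horizontal axis), of every gene tested in the 2 member lists and in 8 neighbouring lists (vertical axis), filled where the adjusted p was under 0.01. The members other than pirk lie between -0.13 and 0.65, while Rel and the antimicrobial peptide genes lie to the right of 2, where values of genes with uninjured counts near 1 depend on the fit's prior count.

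Tak1 also feeds the JNK branch. In a list of JNK signaling genes, not confined to steps below Tak1, 5 of 10 genes tested rose and 1 fell. The 1 that fell was the receptor gene wgn, named after its values were seen. The JNK phosphatase gene puc and the AP-1 genes Jra and kay rose by 1.14 (SE 0.07), 1.10 (SE 0.10) and 1.08 (SE 0.06) on the log2 scale. The kinase genes bsk and Mkk4 had log2 fold changes of -0.15 and -0.02 and did not pass. Other kinase genes, hep and msn, named after their values were seen, rose by 0.26 (SE 0.05) and 0.27 (SE 0.06). Of 4 other caspase and IAP genes tested, Drice, an effector caspase, rose by 0.62 (SE 0.09) and Diap1, which restrains caspases, by 0.75 (SE 0.06), whereas Dronc (0.27) and Dcp-1 (0.02) did not pass. Of 7 genes of Toll signaling, 4 rose, among them the NF-kappaB gene dl by 2.08 (SE 0.11), its inhibitor cact by 1.33 (SE 0.06) and the kinase gene pll by 1.33 (SE 0.16). Pli (0.03) and tub (-0.28) did not pass, although tub did without injured library 3 (-0.36, edgeR adjusted p = 0.00286).

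The genes whose profile over the 10 libraries was most like that of pirk were Srg1, Rel, Spn88Eb, Mmp1 and CG30080. Likeness was the root mean square difference in log2 CPM, each gene centred on its own uninjured mean, and is a description with no test. It was 0.337 for Srg1, 0.345 for Rel, 0.437 for Spn88Eb, 0.443 for Mmp1 and 0.519 for CG30080, against a median of 2.42 over all genes tested. Rel thus took place 2 among all genes tested. Because of the centring, this measure is small mainly where fold changes are alike, and it does not single out shared variation between libraries. The log2 fold changes of the 5 neighbours ran from 3.10 for Rel to 3.75 for Mmp1, beside 3.51 for pirk. The serpin gene Spn88Eb was at 45.9 ± 10.6 CPM in injured and 4.40 ± 0.400 CPM in uninjured libraries, and Mmp1, a matrix metalloproteinase gene, at 528 ± 96.9 CPM in injured and 39.2 ± 6.62 CPM in uninjured libraries (SD, n = 5 each). The TPM of pirk was 0.0633 to 0.0928 times that of Rel in injured libraries and 0.0429 to 0.0965 times in uninjured libraries. The overlap came from uninjured library 3 alone, which at 0.0965, with 25 counts of pirk, lay above every injured library. The other uninjured libraries lay below every injured one. This pair was not among the ratios planned, and a difference in it was not tested. The medians were 0.0829 in injured and 0.0568 in uninjured libraries.

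Other measures moved with the groups. Summed TPM of 9 hemocyte markers was 85.5 to 108 in injured and 111 to 154 in uninjured libraries, and that of 13 gut markers 35.9 to 66.4 in injured and 101 to 759 in uninjured libraries, both lower in injured libraries without overlap. The sums of 13 fat body markers (917 to 1409 in injured, 1268 to 3192 in uninjured libraries), 8 muscle markers (92.0 to 1007 in injured, 205 to 289 in uninjured), 10 glial markers (1229 to 1796 in injured, 1554 to 2049 in uninjured) and 9 neuronal markers (1313 to 1499 in injured, 1319 to 1669 in uninjured) overlapped. Named after their values were seen, 4 hemocyte markers (Hml, NimC1, eater and Sr-CI), 3 fat body markers (apolpp, Yp3 and fit) and 2 glial markers (repo and wrapper) fell, as did 8 gut markers. The hemocyte marker ush, the fat body markers CG11425 and Ilp6 and the glial markers moody and drpr rose, and no muscle or neuronal marker passed. The study reports by quantitative PCR that draper-I transcript itself rises in the VNC after this injury, so drpr does not measure glial content alone. Some markers passed the filter through 1 group only, among them ush and Ilp6 (injured libraries) and NimC1 (uninjured libraries). Of all markers matched, 1, a gut marker, was at 3 counts or fewer in every injured library, and 0 were in every uninjured library. Adapter reads numbered 4814 to 5452 in injured and 2229 to 2890 in uninjured libraries. The share of reads in exons was 37.2% to 43.1% in injured and 41.3% to 43.4% in uninjured libraries, with 3 injured libraries between 37.2% and 38.2%, below all uninjured ones. The part of these measures in the changes of pirk, dnr1 and Dredd was not tested.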

How the data were processed

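The members and gene lists were chosen with earlier results of these data known. The authors aligned single reads of 100 bp, from RNA depleted of ribosomal RNA without poly(A) selection, with BWA in GeneSifter to release 5 of the fly genome and deposited an estimated count for each gene, rounded here from values at most 0.00063 away from a whole number. The BWA version was not given in the sources used here, and limma is the tool named in the submitters' processing notes. The deposited TPM values are RPKM by formula (counts per kilobase of the longest transcript and per mapped read) as the authors computed them. The authors' own fold changes, adjusted p-values and correlations were not used, and 0 per-sample columns were unmapped.

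Of 14352 genes, 1 was not numeric. Symbols came from a later build for 13159 IDs and not for 1192. Genes whose mean TPM exceeded 2 in either group (9365) were tested by edgeR 4.0.16 (R 4.3.3), with a quasi-likelihood fit of all 10 libraries, library totals over all genes, TMM factors, no covariates and an adjusted p under 0.01. SEs are the size of the log2 fold change over the square root of F. Neighbours of pirk used a prior count of 2. P-values measure the spread between pools of flies. The fit was tested on simulated data. Several ways of setting library totals and of robust fitting were run before this one was kept, the one that an earlier analysis used. Alternatives were other size factors, DESeq2 1.42.0, limma 3.58.1 (voom, or log2(TPM + 1)), other filters, a threshold of 0.05, each library left out, and column number as a block.

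Named genes were all members and, in each other list, up to 3 genes that passed with the largest absolute log2 fold change and up to 2 that did not with the highest CPM, and the 5 nearest to pirk. List genes not matched were smt3, slmb, Bruce, Traf6, FASN1, Nplp2, Mhc, wupA and VAChT.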

Additional observations from a re-analysis of the deposited data

Results flagged for a closer look

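In 3 of the 20 groups of 5 libraries formed by the members, 1 library lay far from the other 4 by Dixon's criterion, where chance gives about 1 in 20. Uninjured library 4 was the highest for Dredd, at 19.6 CPM, and for ird5, at 15.9 CPM. Injured library 5 was the lowest for Diap2, at 164 CPM. Without uninjured library 4, ird5 passed the test.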

How the results depend on the processing

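pirk, dnr1 and Dredd passed under all 19 alternatives with another fit or set of libraries. The log2 fold change of pirk ran from 2.57, by limma on log2(TPM + 1), where the pseudocount shrinks it, to 3.71, that of dnr1 from 0.56 to 0.68 and that of Dredd from 0.52 to 0.72, with the highest adjusted p at 2.01e-06, 0.000146 and 0.00913. The count of members that rose was 3 to 4 when libraries were left out in turn and 5 at an adjusted p under 0.05, where Tak1 and ird5 joined and 1 other pathway gene (Uev1A) fell. The column numbers are not known to pair the libraries. Correlations of same-numbered libraries ran from -0.142 to 0.299, with no comparison to other pairs. With the column number as a replicate block 3 members rose, 0 fell, and 20 other pathway genes rose, among them PGRP-LF (edgeR adjusted p = 0.00579). Library totals over the genes tested only, an alternative chosen after seeing the data, gave 3 members and 19 other genes. Other pathway genes that rose numbered 18 by limma on log2(TPM + 1), where scny was lost, 21 by DESeq2, where PGRP-LF and PGRP-LB were gained, and 23 at an adjusted p under 0.05, against 19 in the report. Over all genes, 707 rose and 574 fell. With limma on log2(TPM + 1) 493 rose and 545 fell, and the median of all genes moved by less than 0.1. Values near 0 changed sign when a library was left out: casp ran from -0.0702 to 0.00666, PGRP-LA from -0.0826 to 0.0905, faf from -0.0568 to 0.00856, Mkk4 from -0.0522 to 0.00222, Dcp-1 from -0.0872 to 0.0679 and Pli from -0.0226 to 0.0506. Dcp-1 was also -0.00151 without normalization factors and -0.0293 by limma on log2(TPM + 1), where Pli was -0.0336. The order of levels was the same by CPM per kilobase, and 4 of 5 neighbours of pirk were shared at a prior count of 0.5. Depth limits Fadd, at 32 to 44 counts, and uninjured pirk, at 12 to 25.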
